A study of Homo sapiens with 30 samples.

Results

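ERK2 ChIP-seq of RWPE1-ERG cells and of their vector control, RWPE1-Vector, makes up 2 of the 30 samples of the series. The members described are all ERK2 peaks that the authors deposited on the main chromosomes, 5721 with ERG and 41276 in the control, and the genes nearest to them among 25956 genes of the expression table. RWPE1 is an immortalised line of normal prostate epithelial cells, and the series asks how the transcription factor ERG and kinase signalling act together in it. Both lines were made by retroviral transduction and drug selection, with the empty vector pQCXIH in RWPE1-Vector cells and pQCXIH-ERG (uniprot isoform 1) in RWPE1-ERG cells. Cells grew in a serum-free keratinocyte medium with EGF and bovine pituitary extract, so the receptor upstream of ERK had its ligand in both lines. ERK2 was precipitated with the antibody D-2 SCBT, DNA from 3 ChIP experiments was pooled before sequencing per the methods, and each line gave 1 library. Expression is given as FPKM (fragments per kilobase of transcript, scaled to the reads mapped), pooled by the authors over 3 RNA-seq libraries of each line, whose cells also carried pBabe-puro. Open chromatin of RWPE1+mAKT cells and ERG peaks of RWPE1-ERG+mAKT cells are also used, where mAKT is a constitutively active, myristoylated AKT kinase. With 1 ERK2 library and 1 pooled expression value a line, no comparison between the lines has a replicate error, none was tested, and intervals for shares are 95% Wilson intervals for counting error only.

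ERK2 is the last kinase of the RAS, RAF, MEK and ERK cascade, which growth factor receptors switch on. Active ERK enters the nucleus and phosphorylates transcription factors, among them ETS proteins and the FOS and JUN proteins that form AP-1, and it has been found at chromatin itself. ERG is an ETS factor of endothelial and blood cells that prostate tumours often express after a gene fusion, and it is an ERK substrate. The expression table was checked against these labels. ERG was at 0.264 FPKM in RWPE1-Vector and 358 FPKM in RWPE1-ERG cells. Basal markers were abundant in both lines, with KRT5 at 3126 and 1170 FPKM and TP63 at 36.3 and 21.3 FPKM. The luminal markers KLK2 and KLK3 were listed at 0 in both lines, although the luminal keratins KRT8 (622 and 1769 FPKM) and KRT18 (817 and 1843 FPKM) were abundant. The endothelial markers PECAM1 and CDH5 and the leukocyte marker PTPRC were each below 0.02 FPKM in both lines.

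The sequences below are 151 bp of the plus strand of hg19 centred on the summit of a peak, and capitals mark each match to the AP-1 sequence TGACTCA or TGAGTCA, or to the ETS sequence AGGAAGTG or CGGAAGTG. They show 3 sites from each class of the comparison, chosen after the values were seen for genes to which the results return. Summits only in RWPE1-ERG cells are given for TNFAIP8 (in its intron), F3 (3668 bp upstream of its start) and ELL2 (in the transcript MIR583HG). Summits in both lines are given for KRT7 and LAMA5 (in introns of these genes) and MIR21 (downstream of it). Summits only in RWPE1-Vector cells are given for KRT5 (past its 3′ end), LAMB3 (801 bp upstream of its start) and SSH3 (past its 3′ end).
TNFAIP8, only with ERG, chr5:118610132-118610282: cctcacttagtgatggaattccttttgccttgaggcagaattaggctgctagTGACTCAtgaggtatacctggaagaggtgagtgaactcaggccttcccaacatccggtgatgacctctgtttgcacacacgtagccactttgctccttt
F3, only with ERG, chr1:95010908-95011058: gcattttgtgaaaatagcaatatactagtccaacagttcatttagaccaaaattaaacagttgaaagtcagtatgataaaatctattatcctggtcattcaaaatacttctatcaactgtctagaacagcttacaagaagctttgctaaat
ELL2, only with ERG, chr5:95404052-95404202: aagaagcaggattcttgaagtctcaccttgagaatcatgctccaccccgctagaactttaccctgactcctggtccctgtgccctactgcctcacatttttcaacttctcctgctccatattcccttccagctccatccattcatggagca
KRT7, kept, chr12:52635045-52635195: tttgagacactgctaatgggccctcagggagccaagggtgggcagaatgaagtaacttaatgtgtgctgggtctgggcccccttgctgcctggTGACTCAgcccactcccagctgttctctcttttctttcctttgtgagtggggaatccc
LAMA5, kept, chr20:60925085-60925235: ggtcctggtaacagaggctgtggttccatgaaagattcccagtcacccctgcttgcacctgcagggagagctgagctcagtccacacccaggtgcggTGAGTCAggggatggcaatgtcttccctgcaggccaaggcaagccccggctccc
MIR21, kept, chr17:57920592-57920742: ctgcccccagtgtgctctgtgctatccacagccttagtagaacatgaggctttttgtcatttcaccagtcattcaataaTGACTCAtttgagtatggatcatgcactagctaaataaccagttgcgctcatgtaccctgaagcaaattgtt
KRT5, only in vector, chr12:52907144-52907294: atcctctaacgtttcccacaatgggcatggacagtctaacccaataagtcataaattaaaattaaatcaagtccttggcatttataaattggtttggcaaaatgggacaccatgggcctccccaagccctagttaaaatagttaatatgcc
LAMB3, only in vector, chr1:209826496-209826646: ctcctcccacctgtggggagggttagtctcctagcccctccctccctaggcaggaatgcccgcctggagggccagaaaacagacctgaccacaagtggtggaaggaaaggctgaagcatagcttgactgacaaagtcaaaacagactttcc
SSH3, only in vector, chr11:67080377-67080527: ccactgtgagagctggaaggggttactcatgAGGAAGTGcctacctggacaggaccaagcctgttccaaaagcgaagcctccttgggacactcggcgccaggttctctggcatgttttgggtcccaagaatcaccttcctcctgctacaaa
The AP-1 sequence lies in 4 of these 9 windows, at TNFAIP8, KRT7, LAMA5 and MIR21, and the ETS sequence in 1, at SSH3. Windows of MIR205 (kept) and POLR2A (only with ERG), extracted but not shown, held neither. The windows were chosen, so their count is not a rate. Within 100 bp of the summit, AP-1 was at 7.55% of all sites only with ERG, 8.79% of kept sites and 3.78% of sites only in vector.

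A short core of strong ERK2 sites was common to both lines and the long remainder of each list was not. Of the 50 RWPE1-ERG peaks with the lowest p-value, 98.0% (89.5 to 99.6%) overlapped a peak of RWPE1-Vector cells (1 bp or more), and this share was 32.7% at ranks 201 to 500 and 10.7% at ranks 2001 to 5721. Read from the other side, 48 of the 50 strongest RWPE1-Vector peaks met an RWPE1-ERG peak, and 1.02% of those at ranks 20001 to 41276 did. In total 876 RWPE1-ERG peaks were kept (met by a vector peak), 4845 were only in RWPE1-ERG cells, and 40395 RWPE1-Vector peaks were only in that line. Small RNA genes lay within 1 kb of 72.0% of the 50 strongest peaks in each line. These are genes of small nuclear, nucleolar and Cajal body RNA and of 7SK, 7SL, RMRP, RPPH1, Y and vault RNA. The lists differ in what produced them: RWPE1-Vector had 8393459 ChIP reads against 15658943 input reads, and RWPE1-ERG had 15020233 against 9675359. The number of peaks in a line cannot be told apart from these depths, and only 306 and 178 peaks had a q-value of at most 0.01. Counts are therefore also given for the same number of peaks, the 5721 strongest RWPE1-Vector peaks against all RWPE1-ERG peaks, where 420 RWPE1-ERG peaks (7.34%) were kept.

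**Figure D1:**
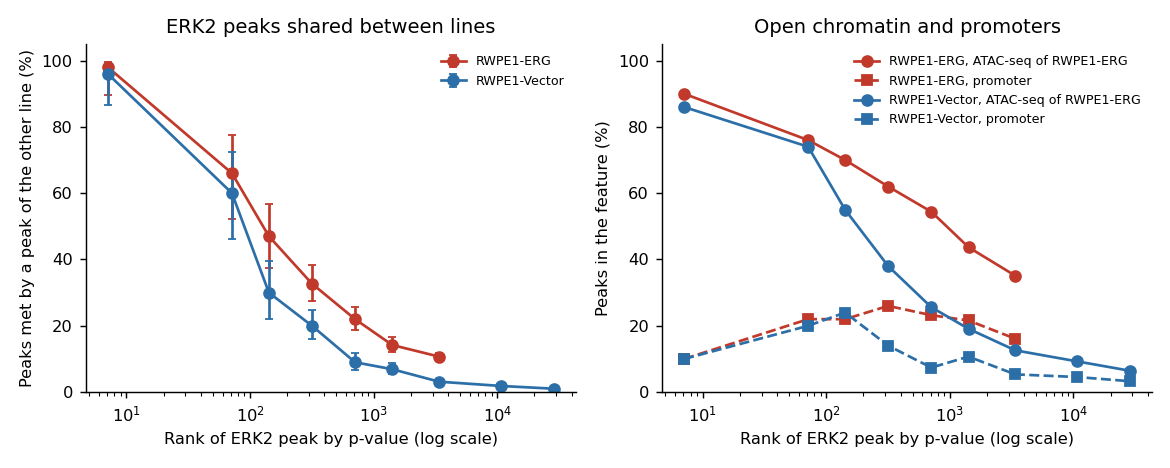
ERK2 peaks by rank of their p-value within each line (x axis, log scale). Left, the share of peaks met by a peak of the other line, with 95% Wilson intervals, which starts at 98.0% in RWPE1-ERG cells and is lower at each later rank in both lines. Right, the share in open chromatin (ATAC-seq of RWPE1-ERG cells) and at promoters, where RWPE1-ERG peaks of ranks 2001 to 5721 are at 35.1% and 16.1% and RWPE1-Vector peaks of the same ranks at 12.6% and 5.35%.

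The strongest kept sites lay at genes of small RNAs that act in RNA processing, and their enrichment was high in both lines. The peak at SNORD3A, a copy of the U3 nucleolar RNA, was enriched over input by 60.9 with ERG and by 29.9 in vector. SNORD3B-1, another U3 copy, had 45.5 and 38.7. The promoter shared by WDR74 and the U2 gene RNU2-2P went the other way, with 12.9 in RWPE1-ERG and 28.1 in RWPE1-Vector cells. RNU11, an RNA of the minor spliceosome, had 22.7 and 20.9. Many of these genes have near-identical copies, so the authors' alignment could divide reads among them. Among kept sites away from such genes, KRT7, a keratin of simple epithelia, had 11.4 in RWPE1-ERG and 3.99 in RWPE1-Vector cells, and its expression was 2463 FPKM in RWPE1-Vector and 4356 FPKM in RWPE1-ERG cells. The microRNA gene MIR21 had 11.9 and 7.19. The site beside MIR205, a microRNA of basal epithelium, had 9.73 and 14.2. SQSTM1, the autophagy receptor p62, held a site with 8.74 and 4.92.

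Over all 876 kept sites the median ratio of fold enrichment, RWPE1-ERG over RWPE1-Vector, was 1.01 (quartiles 0.841 and 1.21), and 464 sites (53.0%) were higher with ERG. The 66 sites within 1 kb of a small RNA gene by the annotation used had a median ratio of 1.15, and the 810 others, among which RNU11 is counted, had 1.0. Each fold is scaled to its own ChIP and input library, and the libraries differ in depth as given above, so a ratio near 1 does not show equal occupancy.

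The strongest peaks found only in RWPE1-ERG cells had folds between 4.76 and 9.01, and 5 of the 15 named by the rule lay outside any open chromatin region of RWPE1-ERG or RWPE1+mAKT cells. The first by p-value lay 11562 bp from the shared locus of MIR3614 and TRIM25, a ubiquitin ligase of antiviral sensing, with a fold of 9.01. POLR2A, the large subunit of RNA polymerase II, had a peak of 7.57 with its summit 100 bp after its start, and was given to the neighbouring locus of SLC35G6, which the peak overlaps at its edge, while its expression was 35.8 FPKM in RWPE1-Vector and 28.8 FPKM in RWPE1-ERG cells. A peak of 7.26 in MIR583HG was nearest to the merged locus of ELL2, an elongation factor at 23.0 and 33.0 FPKM, and lay 106572 bp upstream of the ELL2 start. MAPK15, an atypical ERK-family kinase, had a peak of 6.5 near its start and 2.78 and 3.81 FPKM.
TNFAIP8, a regulator of cell survival, had a peak of 6.3 and 18.7 and 19.1 FPKM. RAPGEF1, an exchange factor for RAP1, had 6.43 and 19.1 and 16.8 FPKM. CDKN1B, the cell cycle inhibitor p27, had 6.41 just past the gene and 10.5 and 9.98 FPKM. The peaks in HIST1H4A, a histone gene, and RPL41, a ribosomal protein gene, had 6.02 and 6.33, and neither gene had any vector peak.

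The strongest peaks found only in RWPE1-Vector cells included 1 each at KRT5 and LAMB3, genes of the basal epithelial layer that also had RWPE1-ERG peaks elsewhere. Of 11 basal genes, 6 had peaks in both lines and 2 only in RWPE1-Vector cells. Of all genes, 11.5% had peaks in both lines and 35.4% only in RWPE1-Vector cells. KRT5, the keratin that defines basal cells, had a peak of 7.29 past its 3′ end, and its expression was 3126 FPKM in RWPE1-Vector and 1170 FPKM in RWPE1-ERG cells. LAMB3, a chain of the laminin that anchors basal cells, had a peak of 6.27 at its promoter, and its expression went the opposite way, from 115 to 222 FPKM. SSH3, a phosphatase of the cofilin pathway, had a peak of 6.77 and 24.3 and 21.96 FPKM. IFITM10 had the lowest p-value of the class with a fold of 9.69 and was barely expressed, at 0.467 and 0.29 FPKM. BUD31, a splicing factor, had a peak of 7.39 at its promoter, given to the merged locus of ATP5J2 that also holds BUD31, and 48.4 and 49.4 FPKM. The tumour suppressor LZTS2 also had a peak of 7.39, with 31.6 and 27.1 FPKM. Where the q-value was 0.01 or lower, 55 RWPE1-ERG peaks met no RWPE1-Vector peak of any strength, and 171 RWPE1-Vector peaks met no RWPE1-ERG peak.

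Peaks only in RWPE1-ERG cells lay more often in open chromatin and at promoters, and less often in H3K27me3, than peaks only in RWPE1-Vector cells. With the same number of peaks, 39.0% (37.7 to 40.3%) of 5301 sites only with ERG, 67.9% (63.2 to 72.1%) of 420 kept sites and 14.2% (13.3 to 15.2%) of 5322 sites only in vector lay in open chromatin of RWPE1-ERG cells. Those regions cover 1.22% of the main chromosomes. ATAC-seq of RWPE1-Vector cells was not analysed here, so the regions come from a line with ERG. With the regions of RWPE1+mAKT cells, which lack the ERG construct, the shares were 39.8%, 70.0% and 14.9%. Promoters, taken as 1 kb to either side of a protein-coding start, held 18.0%, 22.4% and 6.26%, and cover 1.19% of the main chromosomes. The 5721 strongest RWPE1-Vector peaks are the stricter set, with a median −log10 p-value of 5.08 at sites only in vector against 3.23 only with ERG. At the q-value limit of 0.01, open chromatin held 69.4% of 108 sites only with ERG and 49.4% of 233 only in vector, and promoters held 24.1% (17.0 to 32.9%) and 18.9% (14.4 to 24.4%), whose intervals overlap. H3K27me3, the mark of Polycomb repression, covered 7.45%, 7.38% and 20.0% of the sites with the same number of peaks in RWPE1-Vector cells, where its regions cover 7.81% of the main chromosomes. At the q-value limit it covered 8.33% (4.45 to 15.1%) of sites only with ERG and 15.9% (11.7 to 21.1%) of sites only in vector, whose intervals overlap. Its regions in RWPE1-ERG cells, a list of 228233 regions against 492265, cover 4.47% of the main chromosomes. They covered 3.72%, 2.38% and 6.99% of the sites with the same number of peaks. Of the 55 sites only with ERG that passed the q-value limit and met no vector peak, they covered 9.09% (3.95 to 19.6%). Of the 171 such sites only in vector they covered 5.85% (3.21 to 10.4%). ERG peaks of RWPE1-ERG+mAKT cells, the only ERG list of an RWPE1 line used here, met 4.17%, 9.52% and 1.3%. They cover 0.04% of the main chromosomes. The paper reports that ERG gained binding sites in cells with mAKT, so this list can differ from ERG binding in RWPE1-ERG cells. Over all deposited peaks the order was the same, with 36.7%, 65.4% and 7.8% in open chromatin. Base composition moved with these classes: the median GC share of 201 bp windows was 49.3% only with ERG, 53.2% at kept sites and 39.3% only in vector, and its part in the differences was not tested.

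**Figure D2:**
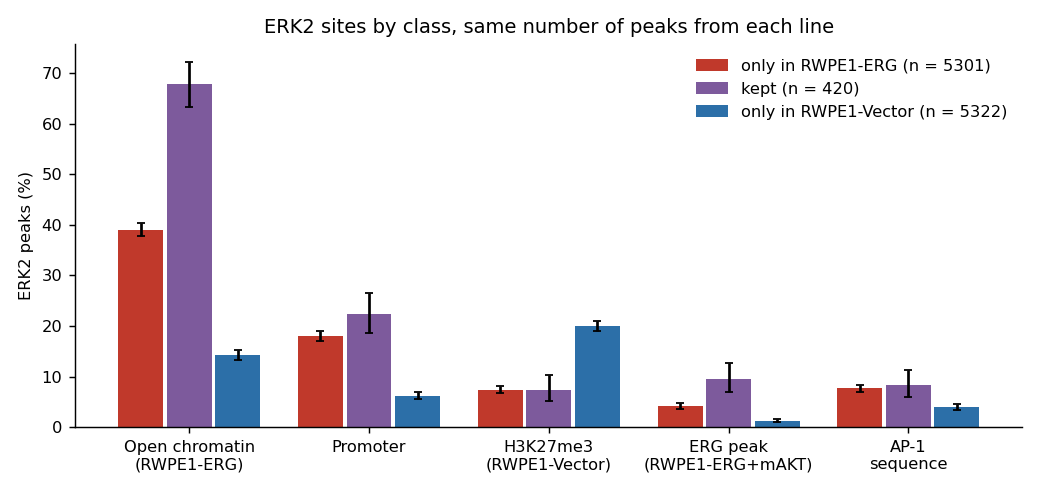
Share of ERK2 sites in each class of chromatin, with the same number of peaks from each line (bars, y axis from 0; error bars are 95% Wilson intervals for counting error only). Kept sites stand highest in open chromatin at 67.9%, and sites only in RWPE1-Vector cells stand highest in H3K27me3 at 20.0%.

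The AP-1 sequence TGACTCA or TGAGTCA, searched on both strands within 100 bp of the summit, was present at 7.55% (6.84 to 8.33%) of the 4845 sites only with ERG and 8.79% (7.09 to 10.8%) of the 876 kept sites. It was present at 3.78% (3.6 to 3.97%) of the 40395 sites only in vector. Equal windows centred 1 kb upstream and downstream held it at 3.26%, 3.54% and 3.08%. Within open chromatin of RWPE1-ERG or RWPE1+mAKT cells the classes were alike, with AP-1 at 12.5% (11.1 to 14.0%) of 1969 sites only with ERG, 10.4% of 616 kept sites and 10.9% (9.91 to 11.9%) of 3688 sites only in vector. Outside open chromatin it was at 4.17%, 5.0% and 3.07%, against 3.11%, 3.46% and 3.03% in the flanking windows. The interval of the sites only with ERG therefore lay above that of the sites only in vector over all peaks, and the intervals overlapped within open chromatin.
The ETS sequences AGGAAGTG and CGGAAGTG followed the same split. They were at 3.81% of sites only with ERG, 2.76% of kept sites and 2.85% of sites only in vector within open chromatin, against 2.08%, 1.46% and 1.67% in flanking windows. CCGGAAGT, an ETS sequence common at promoters that overlaps CGGAAGTG in all but its first base, was at 0.599% of the sites only with ERG against 0.217% of their flanking windows. It was at 0.111% of the sites only in vector against 0.118%. Within open chromatin it was at 1.07% against 0.254% only with ERG and at 0.569% against 0.23% only in vector. TGTGGTT, a RUNX sequence, was at 4.62% of the sites only with ERG against 2.71% in flanking windows, and at 3.97% against 3.7% of the sites only in vector. Within open chromatin these were 4.82% against 2.41% and 4.28% against 3.31%. GGAATG, a TEAD sequence, was at 13.4% against 10.9% and at 11.3% against 10.4%, and within open chromatin at 15.6% against 11.1% only with ERG and 15.7% against 10.6% only in vector. A match describes the letters at a site and not a bound factor, and 11 sequences were searched in all.

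Each peak was given to the gene whose locus in the expression table was nearest. A gene gains ERK2 where only the RWPE1-ERG list holds a peak of it, keeps it where both lists do and loses it where only the RWPE1-Vector list does. RWPE1-ERG peaks were nearest to 3494 genes (13.5%) and RWPE1-Vector peaks to 12159 (46.8%), and the 5721 strongest RWPE1-Vector peaks to 4057 (15.6%). By these lists 514 genes (1.98%) gained, 2980 (11.5%) kept and 9179 (35.4%) lost ERK2, and the large class of losses moves with the length of the vector list. With the same number of peaks, 2018 genes gained, 1476 kept and 2581 lost. A gene that kept ERK2 seldom kept it at the same place, since the 876 kept sites belonged to 628 genes.

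Expression in the classes of gene was compared as the log2 ratio of each gene, RWPE1-ERG over RWPE1-Vector. Among genes that reached 1 FPKM in 1 line or both, 443 of 12240 (3.62%) were at least 2-fold higher in RWPE1-ERG cells and 122 (0.997%) at least 2-fold lower, on the scale of log2(FPKM + 1). Of the 351 expressed genes that gained ERK2, 15 (4.27%, 2.61 to 6.93%) were at least 2-fold higher and 3 at least 2-fold lower, with a median log2 ratio of 0.07. Of the 2016 that kept it, 90 (4.46%, 3.65 to 5.46%) were higher and 15 lower, with a median of 0.03. Of the 4504 that lost it, 94 (2.09%, 1.71 to 2.55%) were higher and 35 lower, with a median of −0.05. Genes near no peak of either line, which numbered 5369, had 4.54% (4.02 to 5.13%) higher and a median of 0.00. These relations depended on the peaks taken. With the same number of peaks, 3.65% (2.79 to 4.77%) of genes that gained ERK2 were at least 2-fold higher. This was close to the 3.66% (3.28 to 4.08%) of genes near no peak. The shares were 5.57% (4.29 to 7.19%) of genes that kept it and 1.85% (1.25 to 2.74%) of genes that lost it. In open chromatin the shares were 4.82% (3.39 to 6.79%) for gain, 6.77% (5.16 to 8.84%) for keep, 2.93% for lose and 3.4% (3.05 to 3.78%) near no peak. At the q-value limit of 0.01 the genes that lost ERK2 turned, with a median of 0.05 and 14 of 133 (10.5%, 6.37 to 16.9%) at least 2-fold higher, against 3.49% of genes near no such peak. Loci of the classes differed in length, with medians of 13.9 kb for gain, 48.7 kb for keep and 35.1 kb for lose.

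Single genes of each class stood far from these medians in both directions. Of genes that gained ERK2, ENTPD2, an enzyme that degrades extracellular nucleotides, went from 5.74 FPKM in RWPE1-Vector to 22.9 FPKM in RWPE1-ERG cells, with 2 peaks only with ERG. HIST1H2BO went from 22.3 to 69.1 FPKM. The stress keratin KRT16 went from 28.1 to 7.25 FPKM, and the AP-1 subunit JUND from 78.2 to 47.4 FPKM. VIM, the mesenchymal intermediate filament, gained 1 peak in its locus and was at 737 and 1056 FPKM. Of genes that kept ERK2, CST6, a protease inhibitor, went from 9.51 to 74.3 FPKM with a peak at the same place in both lines. IGFBP3, which binds insulin-like growth factors, went from 4.44 to 41.1 FPKM, but its only RWPE1-ERG peak lay 532984 bp away. PTGES, a prostaglandin synthase, went from 19.4 to 4.51 FPKM and HTRA1, a secreted protease, from 29.4 to 9.74 FPKM.
Of genes that lost ERK2, KRT14, the partner of KRT5, had 4 vector peaks with a fold of up to 6.07 and went from 2936 to 700 FPKM. ESM1, an endothelial proteoglycan, had 3 vector peaks and went the other way, from 0.1 to 15.9 FPKM. The ERG locus itself had 7 vector peaks and none with ERG, where transcripts of the construct set its FPKM. MicroRNA and small nucleolar RNA genes also stood at both ends of the rule, such as SNORD91A at 0 and 40.6 FPKM. The libraries were poly(A)-selected and a 0 in these short genes can be a failed estimate.

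Some genes carried clusters of RWPE1-ERG peaks that had few or no counterparts in RWPE1-Vector cells. The genes named for their clusters here were chosen after their values were seen, unless a list names them. F3, the coagulation initiator tissue factor, had 15 RWPE1-ERG peaks with folds from 2.7 to 5.64 within 20 kb and 1 RWPE1-Vector peak of 3.05, and none met. Of the 15, 4 lay in open chromatin, and F3 was at 242 FPKM in RWPE1-Vector and 567 FPKM in RWPE1-ERG cells. THBS1, the matrix protein thrombospondin-1, had 10 RWPE1-ERG peaks inside the gene, the highest at 5.98. It had no RWPE1-Vector peak within 20 kb and was the nearest gene of 3 farther away. It was at 229 and 491 FPKM.
KRT7 had 18 RWPE1-ERG and 13 RWPE1-Vector peaks within 20 kb of the gene, and its strongest sits on the window shown above, with an AP-1 sequence. KRT5, on the same chromosome, had 5 RWPE1-ERG and 11 RWPE1-Vector peaks within 20 kb, 2 of them kept in each line. LAMA5, a chain of basement membrane laminin, had the most RWPE1-ERG peaks of any gene, 28 against 12 in RWPE1-Vector cells, 12 of the 28 kept, while its expression was 57.0 and 62.7 FPKM.
ARHGAP29, a GTPase-activating protein, had 10 peaks with ERG and 7 in vector, none shared, and 27.6 and 60.9 FPKM. CCND2, a D-type cyclin, had 5 and 2, none shared, and 26.3 and 99.3 FPKM. The RWPE1-ERG peaks of ARHGAP29 and CCND2 were spread beyond the loci. Those of CCND2 reached from 4225476 to 4383056 on chromosome 12, and its locus runs from 4357933 to 4414522. MYC had 10 and 4 and was lower with ERG, at 181 and 138 FPKM. DDIT4, an inhibitor of mTOR, had 10 and 8 and was also lower, at 613 and 368 FPKM. PPDPF had 5 and 0, with 791 and 987 FPKM.

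**Figure D3:**
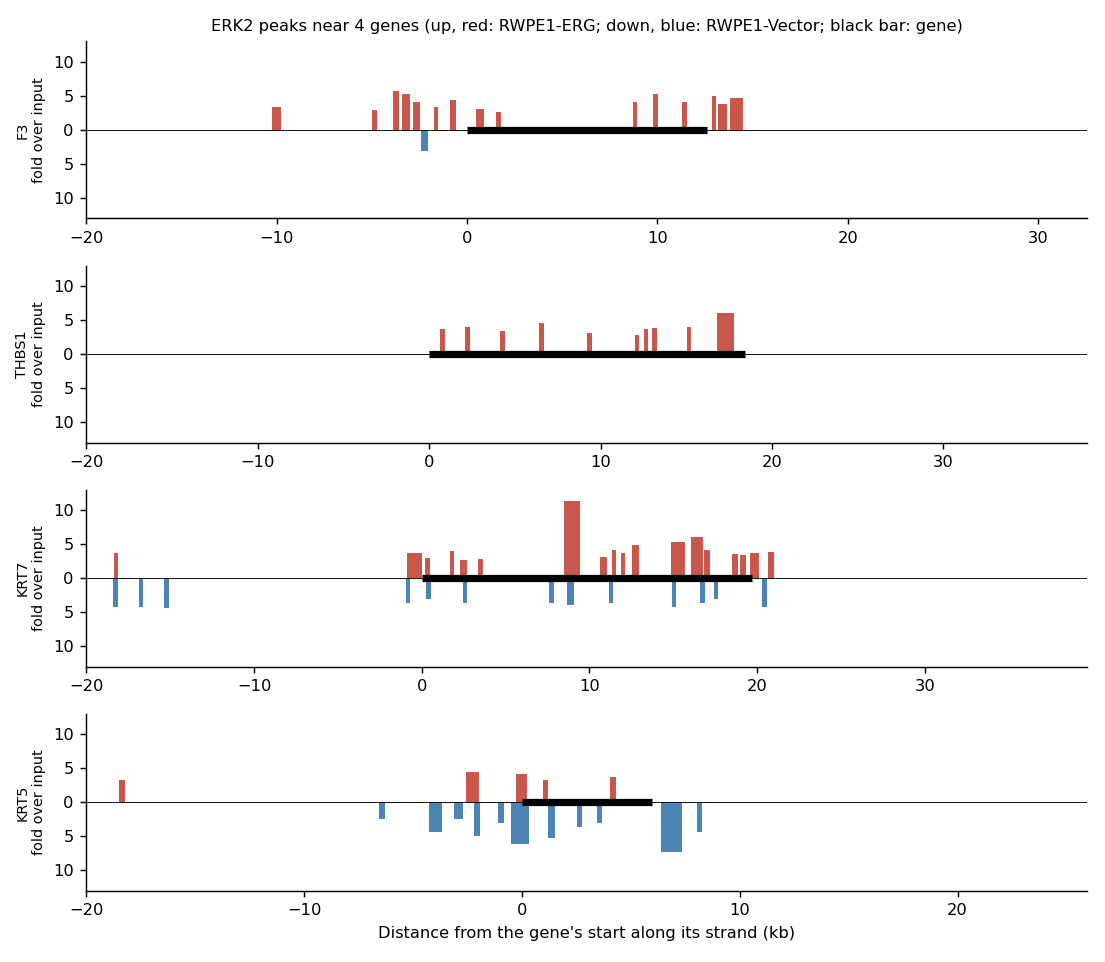
ERK2 peaks within 20 kb of 4 genes, drawn by distance from the gene's start along its strand (x axis, kb) and by fold enrichment over input (y axis, up for RWPE1-ERG and down for RWPE1-Vector; the black bar is the gene). F3 and THBS1 carry 15 and 10 RWPE1-ERG peaks against 1 and 0, KRT7 carries peaks of both lines, and KRT5 has 11 RWPE1-Vector peaks against 5.

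Across all expressed genes the median FPKM ratio was larger where a gene had more RWPE1-ERG peaks. The median log2 ratio was −0.02 for the 9873 genes with none, 0.02 for 1575 with 1, 0.06 for 428 with 2, 0.08 for 271 with 3 or 4, and 0.16 for 93 with 5 or more. In the last group 9 genes (9.68%, 5.18 to 17.4%) were at least 2-fold higher in RWPE1-ERG cells and 1 was at least 2-fold lower. The shares higher in the earlier groups were 3.42%, 4.25%, 4.44% and 3.69%, with no steady rise. Median FPKM in RWPE1-Vector cells also differed, from 10.2 with no peak to 33.1 with 5 or more, and its part was not tested. Counted over the same number of RWPE1-Vector peaks, the median log2 ratios were −0.01, −0.02, −0.03, −0.05 and 0.07. Genes with 5 or more RWPE1-ERG peaks and more than in RWPE1-Vector cells numbered 49, and of the 42 expressed ones 30 (71.4%) had a higher FPKM with ERG and 5 (11.9%) were at least 2-fold higher, against 48.3% and 3.62% of all expressed genes, and none was 2-fold lower. They were not spread evenly, since 11 lay on chromosome 9, 9 on chromosome 20, 6 on chromosome 1 and 5 on chromosome 8.
Crowding of peaks in some parts of the genome moved with these counts. The 63 bins of 5 Mb with the most peaks, of 633, held 41.8% of RWPE1-ERG peaks. The fullest 63 bins of the same number of RWPE1-Vector peaks held 28.5% of them, and those of genes held 30.5%. The bin at 135 to 140 Mb of chromosome 9 held 167 RWPE1-ERG and 211 RWPE1-Vector peaks, and the last bin of chromosome 20 held 122 and 154. Peaks were scarce on chromosomes 18, 22 and X in both lines, at 5.07, 2.42 and 1.77 per Mb in RWPE1-Vector cells against 20.3 on chromosome 20. In RWPE1-ERG cells they were at 0.243, 0.214 and 0.0515 per Mb, against 5.66 on chromosome 20.

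Of the genes of the ERK cascade, SHC1, EGFR, TGFA and MAP2K1 were among those with RWPE1-ERG peaks. Of 29 measured components, 7 (24.1%) were nearest to an RWPE1-ERG peak, 16 to any RWPE1-Vector peak and 4 (13.8%) to one of its 5721 strongest, against 13.5%, 46.8% and 15.6% of all genes. Among ligands, TGFA kept ERK2 with 3 peaks with ERG, at 21.3 and 25.4 FPKM, and HBEGF lost it, at 5.33 and 9.26 FPKM. The receptor EGFR kept it with 3 RWPE1-ERG and 15 RWPE1-Vector peaks, none at the same place, and was at 57.1 and 32.4 FPKM. The adaptor SHC1 was the only component that gained ERK2, with 2 peaks, and was at 167 and 123 FPKM. The MEK1 gene MAP2K1 held the only shared site of the list, of 4.86 with ERG, and was at 48.5 and 58.8 FPKM.

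Genes that ERK signalling induces as its own brakes formed a list of 18. Of these feedback genes, 6 (33.3%) were nearest to an RWPE1-ERG peak and 7 (38.9%) to one of the same number of RWPE1-Vector peaks. The shares of all genes were 13.5% and 15.6%. None of the 18 had a peak at the same place in both lines. Such genes were few in general, 628 of the 3494 genes nearest to an RWPE1-ERG peak. DUSP6, the ERK-specific phosphatase, had 3 RWPE1-ERG and 6 RWPE1-Vector peaks and was at 86.2 and 59.6 FPKM. DUSP5, a nuclear ERK phosphatase, had 2 and 5 and was at 39.1 and 33.0 FPKM, although the strongest of the 2 lay 84553 bp away. SPRY4, an inhibitor of the pathway, had 1 and 4 and was at 9.9 and 8.66 FPKM. PHLDA1 had 4 and 8 and was at 31.7 and 23.9 FPKM, whereas DUSP1, a phosphatase of several MAP kinases, had 3 and 4 and was at 50.4 and 62.1 FPKM. ERRFI1, a brake on EGFR, had 3 and 4 and was at 32.0 and 35.3 FPKM. The median log2 ratio of the 17 expressed members was −0.17 and none was past 2-fold.
The immediate-early genes, which growth factors switch on within minutes, had an RWPE1-ERG peak at 9 of 20 members (45.0%). The same number of RWPE1-Vector peaks also reached 9, against 13.5% and 15.6% of all genes. KLF6 had 7 RWPE1-ERG peaks, 3 of them kept, and 58.9 and 78.6 FPKM. IER2 gained 2 peaks and was level at 90.9 and 90.8 FPKM. Of 15 AP-1 subunits, 5 (33.3%) had an RWPE1-ERG peak, 10 (66.7%) any RWPE1-Vector peak and 6 one of the same number, against 13.5%, 46.8% and 15.6% of all genes. Both RWPE1-ERG peaks of JUNB were kept, and it was at 111 and 97.3 FPKM. FOS had a peak at its promoter only with ERG and was at 8.86 and 9.04 FPKM. FOSB had 2 peaks, 1 of them kept, and was at 2.61 and 1.15 FPKM, and MAFK had 3, none kept, and was at 15.9 and 14.4 FPKM. FOSL1, the most abundant member, had no RWPE1-ERG peak and was at 119 and 200 FPKM.

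Adhesion genes were the list with the largest share near RWPE1-ERG peaks. Of 21 integrins, laminins and their partners, 15 (71.4%) were nearest to an RWPE1-ERG peak, 19 (90.5%) to any RWPE1-Vector peak and 11 (52.4%) to one of the same number. For all genes these shares were 13.5%, 46.8% and 15.6%. The median locus length of the list was 79.6 kb against 29.5 kb for all genes. ITGB4, the integrin of hemidesmosomes, had 4 RWPE1-ERG and 4 RWPE1-Vector peaks, 2 of the former kept, and was at 379 and 283 FPKM. Its partner ITGA6 had 1 and 7 and was at 125 and 70.9 FPKM. ITGB1, the common integrin beta chain, had 4 and 7, none shared, and was at 200 and 209 FPKM. ITGA3 had 6 and 4 and was at 187 and 164 FPKM. The median log2 ratio of the list was −0.06, with COL17A1 alone past 2-fold, from 210 to 79.4 FPKM.
Of 22 genes of epithelial junctions, 10 (45.5%) had an RWPE1-ERG peak, 17 (77.3%) any RWPE1-Vector peak and 4 (18.2%) one of the same number. All genes had 13.5%, 46.8% and 15.6%, and each of the 10 also had a vector peak. The median locus of these junction genes was 51.5 kb, and their median log2 ratio was 0.18. The desmosomal gene PKP1 had the strongest, of 5.22, and was at 97.5 and 72.8 FPKM. CDH1, which encodes E-cadherin, had 2 RWPE1-ERG and 3 RWPE1-Vector peaks, none shared, and was at 33.7 and 41.2 FPKM. CLDN4 had 3 and 1 and was at 8.23 and 14.9 FPKM. Of 11 basal genes, 6 had an RWPE1-ERG peak and 8 had one of the same number of RWPE1-Vector peaks, and their median log2 ratio was −0.74.

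The coactivators YAP1 and WWTR1, the TEAD factors and the regulators and targets listed with them, which respond to cell shape and adhesion, were near RWPE1-ERG peaks in 11 of 18 cases (61.1%) and near the same number of RWPE1-Vector peaks in 8 (44.4%). Any RWPE1-Vector peak was near 13 (72.2%), among them all 11 near RWPE1-ERG peaks. For all genes the shares were 13.5%, 15.6% and 46.8%, and loci of the list had a median length of 62.0 kb against 29.5 kb. The 11 cases near RWPE1-ERG peaks include YAP1, WWTR1, TEAD1 and TEAD3 themselves, each with 1 RWPE1-ERG peak. Of the 18 genes 5 were at least 2-fold higher in RWPE1-ERG cells, against 3.62% of all expressed genes, and none 2-fold lower. CYR61, a matricellular protein, had 3 RWPE1-ERG peaks, 1 at its promoter, none kept, and was at 65.4 and 255 FPKM. AMOTL2 had 6 and 8 and was at 22.8 and 29.9 FPKM. CTGF, a near relative of CYR61, had no RWPE1-ERG peak and was also higher, at 10.2 and 24.1 FPKM, as was the receptor AXL, with no peak in either line, at 34.5 and 82.4 FPKM.
Of 30 genes of cell migration and invasion, 11 (36.7%) had an RWPE1-ERG peak, 18 (60.0%) any RWPE1-Vector peak and 9 (30.0%) one of the same number. All genes had 13.5%, 46.8% and 15.6%, and each of the 11 also had a vector peak. The median log2 ratio of the 25 expressed members was 0.42, and 7 were at least 2-fold higher and none lower, against 3.62% and 0.997% of all expressed genes. Only CYR61 and THBS1 of the 7 had an RWPE1-ERG peak. The receptor MET had 5 and 8, none shared, and was at 48.6 and 39.6 FPKM. MMP14, a membrane protease, had 2 and 2, 1 kept, and was at 54.7 and 85.2 FPKM. CAV1 had 2 and 1 and was at 539 and 499 FPKM, and CAV2 had 2 and 3 and was at 140 and 112 FPKM. HMGA2 had 3 and 8 and was at 55.3 and 67.6 FPKM, and PTHLH had 1 and 2 and was at 42.0 and 45.5 FPKM. MMP1 and CXCL8 also had RWPE1-ERG peaks and were at or below 1.13 FPKM in both lines.
Of the 11 genes that the study names as ERG targets, a list chosen in part on these samples and so no independent evidence, 6 had an RWPE1-ERG peak and 2 of them had it at the same place in vector. Any RWPE1-Vector peak was near 8 of the 11, and one of the same number of peaks was near 5. For all genes the shares were 13.5%, 46.8% and 15.6%, and loci of the list had a median length of 108.0 kb. IL4R kept its site, with 3.98 and 5.54, and was at 20.5 and 19.9 FPKM. ENC1 had 2 peaks, 1 kept, and was at 8.65 and 12.2 FPKM. DLG1 had 3 and 11 peaks and was at 15.1 and 16.6 FPKM, while the single RWPE1-ERG peaks of ETS1 and IRS2 lay 123081 and 9872 bp from the genes.

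Histone and ribosomal protein genes had a larger share near RWPE1-ERG peaks than near the same number of RWPE1-Vector peaks. For all genes these shares were 13.5% and 15.6%, and any RWPE1-Vector peak was near 46.8%. Of 73 clustered histone genes, 39 (53.4%) had an RWPE1-ERG peak, 52 any RWPE1-Vector peak and 26 (35.6%) one of the same number, and 25 had a peak at the same place in both lines. Their median log2 ratio was 1.43 and 48 of 58 expressed ones were at least 2-fold higher, against 3.62% of all expressed genes. Histone mRNAs mostly lack poly(A) tails and the libraries were poly(A)-selected. Small nuclear and nucleolar RNA genes, which lack them too, had a median of 1.23 with 156 of 258 at least 2-fold higher, and the part of the selection in either was not tested. Histone genes without any peak, such as HIST1H4F at 10.9 and 53.3 FPKM, were also higher. Of 85 ribosomal protein genes, 31 (36.5%) had an RWPE1-ERG peak, 46 any RWPE1-Vector peak and 16 (18.8%) one of the same number. Their median log2 ratio was 0.24. RPL41 and RPLP2 gained ERK2, the latter at 3471 and 4499 FPKM.
Olfactory receptor genes, of which 2 of 384 reached 1 FPKM, had an RWPE1-ERG peak at 3 of 384 (0.781%) and any RWPE1-Vector peak at 117 (30.5%), and 16 (4.17%) with the same number of peaks. All genes had 13.5%, 46.8% and 15.6%. Zinc finger genes were at 34 of 526 (6.46%), 241 and 56 (10.6%), and 371 of them were expressed. Of 20 genes of the cornified envelope, none had an RWPE1-ERG peak or one of the same number of RWPE1-Vector peaks, and 10 had a weaker vector peak, with 10 of the 20 expressed. HOX cluster genes were at 2 of 39, 7 and 1, and 24 were expressed. No list had a larger share near RWPE1-ERG peaks when all RWPE1-Vector peaks were counted, and 11 of 28 did with the same number.

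**Figure D4:**
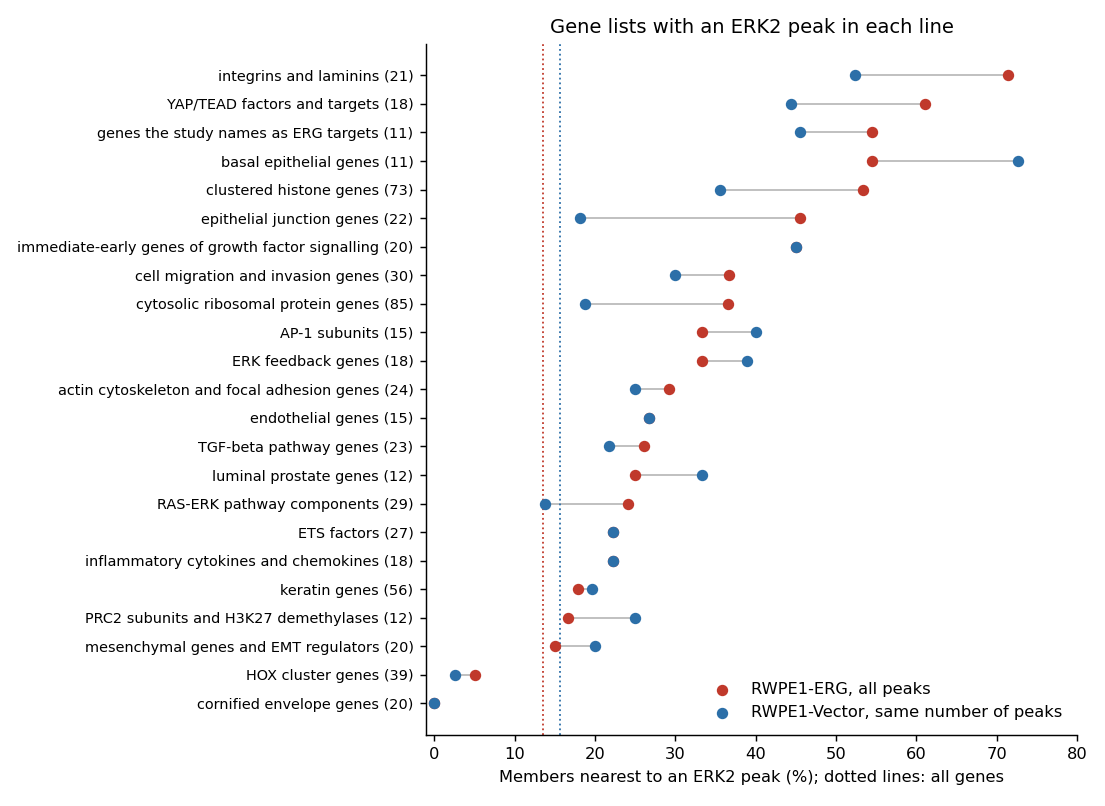
Share of members of each list (number measured in brackets) nearest to an ERK2 peak of RWPE1-ERG cells (red) and of the same number of strongest RWPE1-Vector peaks (blue), with all genes as dotted lines at 13.5% and 15.6%. A blue point alone marks equal shares. Integrins and laminins stand highest with ERG at 71.4%, and basal genes stand highest in vector at 72.7%.

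ERK2 peaks lay more often at genes expressed in the same line, and the range between silent and abundant genes was wider with ERG. With the same number of peaks, 4.48% (4.1 to 4.88%) of genes below 0.1 FPKM in RWPE1-ERG cells had an RWPE1-ERG peak within 10 kb, and the share was higher in each higher group of expression, up to 26.2% (24.4 to 28.2%) of genes at 50 FPKM or more. In RWPE1-Vector cells the shares were 7.04% (6.58 to 7.53%) and 17.0% (15.3 to 18.7%). At promoters the range was from 0.585% to 11.8% with ERG and from 0.377% to 4.45% in vector. Genes at 50 FPKM or more had a median locus of 16.0 kb, against 23.1 kb below 0.1 FPKM.

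**Figure D5:**
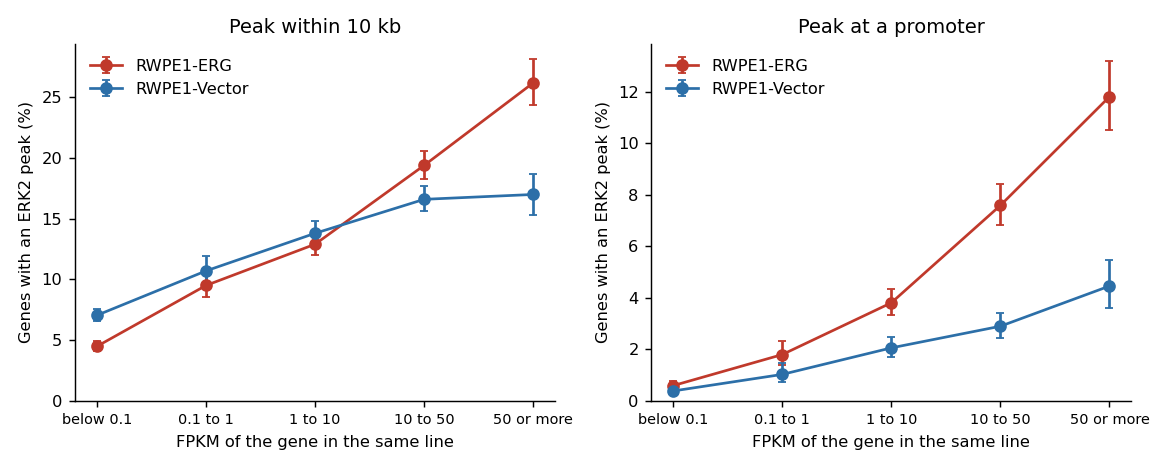
Share of genes with an ERK2 peak by expression in the same line (x axis, FPKM groups), for the same number of peaks from each line, with 95% Wilson intervals for counting error only. The share within 10 kb climbs from 4.48% to 26.2% in RWPE1-ERG and from 7.04% to 17.0% in RWPE1-Vector cells, and at promoters it reaches 11.8% and 4.45%.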

How the data were processed

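ERK2 ChIP-seq reads were aligned by the authors to hg19 with Bowtie2, blacklisted regions and duplicates were removed with bedtools and Picard, and peaks were called against each line's input with MACS2 2.1.2. Per the file headers the p-value limit was 0.01, whereas the methods state 0.001. The deposited peak lists give a pileup signal, a fold enrichment (a ratio over local background), and −log10 p-values and −log10 q-values, whose header cells are damaged and were read by MACS2's column order. The expression table was made by the authors with TopHat2 and Cuffdiff, and its deposited FPKM are pooled over 3 libraries a line. Its fold changes, test scores, p-values and q-values are the authors' own comparisons and were not used. It has 0 columns of single samples. One ATAC-seq list attached to a VCaP label was not used.

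Peaks overlapping by at least 1 bp were counted as kept. Nearest genes came from the table's loci, with ties going to the shorter locus and then the first symbol. Ties concerned 32.3% of RWPE1-ERG and 27.4% of RWPE1-Vector peaks, and 8765 genes share a locus with another. Log2 ratios used FPKM + 1. Gene starts came from GENCODE 44 mapped to GRCh37, and sequences from the GRCh37 reference. Named genes were those nearest to the 10 peaks of lowest p-value in each class, and to the 10 within 10 kb of a gene with an FPKM of at least 5. They also include the 5 with the most RWPE1-ERG peaks, the 5 highest and 5 lowest ratios of each gene class, members with an RWPE1-ERG peak of 4 lists (ERK feedback, AP-1, migration, named ERG targets) and the strongest member of the others. Those given here are part of them, and genes outside the rule were chosen after their values were seen. The members and lists were chosen with earlier results of these data known. Alternatives took the same number of peaks, stricter limits, other overlaps, pseudocounts, filters and windows. Scripts were tested on simulated data. Tables were handled with pandas 2.3.3 and numpy 2.4.6 under Python 3.11.15, intervals came from scipy 1.17.1, sequences were read with pysam 0.24.0 and plots drawn with matplotlib 3.10.9.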

Additional observations from a re-analysis of the deposited data

How the results depend on the processing

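The counts of ERK2 sites depended on which peaks were taken. Sites only in vector lay in open chromatin less often than sites only with ERG over all peaks, with the same number of peaks and at the q-value limit. With the same number of peaks, the share kept was 7.34% of RWPE1-ERG and 6.97% of RWPE1-Vector peaks, 5322 peaks were only in RWPE1-Vector cells, and 2018 genes gained, 1476 kept and 2581 lost ERK2. Of genes that kept it, 5.57% were then at least 2-fold higher, and genes that lost it had a median log2 ratio of −0.06. Open chromatin then held 39.0% of sites only with ERG and 14.2% of those only in vector, ERG peaks met 1.3% of the latter and promoters held 6.26%. At sites only in vector the ratio to flanking windows was 1.32 for AP-1, 1.27 for AGGAAGTG or CGGAAGTG and 1.43 for GGAAGTGA. The GGAAGTGA ratio was 1.36 at sites only with ERG and 2.44 at kept sites. The latter rests on few windows, 11 of 420 (2.62%, 1.47 to 4.63%) against 9 of 840 flanking windows. With these peaks 11 of 28 gene lists had the larger share with ERG. At the q-value limit of 0.01 the shares kept were 39.3% and 23.9%, 108 and 233 peaks were in 1 line only, and 83 genes gained, 63 kept and 198 lost ERK2. A p-value of at most 0.001 gave 16.5% of RWPE1-ERG peaks kept. An overlap of 50% of the shorter peak gave 11.4% and 1.6% kept, and a distance of up to 1 kb gave 31.2% and 4.39%. With a pseudocount of 0.1, 5.8% of genes that kept ERK2 and 3.29% of those that lost it were at least 2-fold higher. With no filter on FPKM these shares were 3.02% and 1.02%, and the median log2 ratios were 0.01 for gain, 0 for keep and 0 for lose.

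Alternatives chosen after seeing the data were peaks within the q-value limit that met no peak of any strength (55 with ERG and 171 in vector), peaks in open chromatin only, gene expression at the q-value limit and the same number of peaks for chromosome bins. Within the q-value limit the median log2 ratios were 0.15 for gain, 0.08 for keep and 0.05 for lose, and 14.6% of 41 genes that kept and 10.5% of 133 that lost ERK2 were at least 2-fold higher. Open chromatin gave 876 genes that gained, 993 that kept and 2058 that lost ERK2, median log2 ratios of 0.08 for keep and −0.03 for lose, and shares at least 2-fold higher of 6.77% and 2.93%. The causes of these shifts were not tested beyond the smaller number of peaks, genes or sites that each setting takes. Of 151 values under alternatives, 68 stayed within the main value's interval or 1.5 times its count, and 83 moved further.

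No paired analysis was possible because the ERK2 data hold 1 library a line and the RNA-seq values are pooled over libraries, which also leaves no library to omit. Depth limits the ERK2 lists: the median pileup at a summit was 5.0 in RWPE1-Vector and 5.15 in RWPE1-ERG cells, so a peak found in 1 line only was not shown to be absent from the other.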
